A study of Mus musculus with 36 samples.

Results

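The G1 cyclins, their kinases and their inhibitors were followed as 10 genes in RNA sequencing of mouse embryonic stem cells (mESCs) on hydrogels of different stiffness. The genes were chosen by name from a count table of 49671 genes. They were the D cyclins Ccnd1, Ccnd2 and Ccnd3, the E cyclins Ccne1 and Ccne2, the kinases Cdk4 and Cdk6, and the inhibitors Cdkn1a, Cdkn1b and Cdkn2c, which encode p21, p27 and p18. All 10 were in the table and passed the filter on low counts, which 17702 genes passed. The rule is a list of names and sets no threshold on a measured value. The members, and the related gene lists read beside them, were chosen with earlier results of these data known.

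The methods of the study name E14 mESCs and Rex1GFPd2 reporter cells and do not say which were sequenced. The sequenced cells carried the label 129m wt for their strain, and no group was labelled with an engineered allele. They were plated on fibronectin-coated StemBond hydrogels of a soft or a stiff kind, a polyacrylamide substrate to which matrix protein is bound stably, or on tissue culture plastic. The media contained serum alone, serum with the cytokine LIF, serum with PD03 (an inhibitor of MEK, the kinase that activates ERK), or serum with LIF and PD03. On both gels, libraries were made at 24 h in serum + LIF and at 48 h in each of the 4 media. On plastic, libraries were made at 48 h in serum + LIF. This gave 11 groups and 36 libraries, 6 for soft gels in serum + PD03 and 3 for every other group.

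A cell leaves G1 for S phase once cyclin-dependent kinases have phosphorylated the RB protein, which releases the E2F transcription factors. D cyclins activate CDK4 and CDK6 and carry growth factor signals, since RAS, MEK and ERK are known to raise D cyclin transcription, while E cyclins activate CDK2 later in G1. p21 and p27 bind cyclin-CDK complexes and hold CDK2 in check, and p18 binds CDK4 and CDK6. mESCs are known for a short G1 phase, low D cyclin levels and cyclin E activity through most of the cycle, and they keep cycling when MEK is inhibited.

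Upstream sequence from RefSeq on the GRCm38.p6 build was listed for 7 of the 10 genes. The first base before each annotated start is base 1, and each window held 250 bases. Shown here are the windows of 3 genes whose levels differed between media, Ccnd3 and Cdkn1b, which were higher with PD03, and Cdk4, which was lower. Capitals mark matches on either strand to 7 motifs, which were E2F (GCGGGAA), ETS (CCGGAAG), AP-1 (TGANTCA), CRE (TGACGTC), FOXO (GTAAACA), E-box (CACGTG) and GC box (GGGCGG). The windows lie at chr17:47504801-47505050, chr10:127063285-127063534 and chr6:134920151-134920400, all on the plus strand.
Ccnd3: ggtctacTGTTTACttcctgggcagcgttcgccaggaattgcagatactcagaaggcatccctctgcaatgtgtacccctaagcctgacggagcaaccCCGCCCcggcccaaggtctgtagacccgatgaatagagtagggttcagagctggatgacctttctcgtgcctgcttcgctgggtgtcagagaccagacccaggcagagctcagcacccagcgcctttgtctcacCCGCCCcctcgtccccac
Cdk4: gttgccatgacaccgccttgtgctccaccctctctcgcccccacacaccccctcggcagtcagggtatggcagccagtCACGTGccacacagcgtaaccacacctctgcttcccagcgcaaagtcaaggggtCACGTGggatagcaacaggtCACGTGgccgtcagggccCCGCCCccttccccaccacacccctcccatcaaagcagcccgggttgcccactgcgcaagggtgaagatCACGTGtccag
Cdkn1b: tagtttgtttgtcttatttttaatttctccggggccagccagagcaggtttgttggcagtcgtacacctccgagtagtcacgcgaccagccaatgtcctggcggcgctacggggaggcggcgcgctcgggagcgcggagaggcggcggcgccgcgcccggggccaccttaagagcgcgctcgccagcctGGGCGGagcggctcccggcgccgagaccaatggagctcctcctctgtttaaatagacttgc
The Cdk4 window held 4 E-box matches, which start 172, 118, 98 and 11 bases before the start of the gene, and 1 GC box. An E-box was found in 6.02% of the 32851 upstream windows of this length, and 4 or more in 0.0213% of them. The Ccnd3 window held a FOXO match 243 bases before the start, a motif found in 3.17% of windows, and 2 GC boxes. The Cdkn1b window held 1 GC box, a motif found in 32.7% of windows. ETS and E2F matches, present in 6.91% and 3.82% of all windows, were not in these 3 windows. Of the other members, a second Ccnd3 start had an ETS match, Cdkn2c had an E2F match and Cdk6 had an E-box. AP-1 and CRE letters, found in 6.75% and 2.78% of windows, were in no member's window. A match is a description of letters and says nothing of binding.

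In the GENCODE M21 annotation of GRCm38, the build of the counts, the D cyclin genes are Ccnd1 (ENSMUSG00000070348) at chr7:144929931-144939925 on the minus strand, Ccnd2 (ENSMUSG00000000184) at chr6:127125162-127152193 on the minus strand and Ccnd3 (ENSMUSG00000034165) at chr17:47505051-47599691 on the plus strand. The E cyclin genes are Ccne1 (ENSMUSG00000002068) at chr7:38097984-38107534 on the minus strand and Ccne2 (ENSMUSG00000028212) at chr4:11191351-11204779 on the plus strand. The kinase genes are Cdk4 (ENSMUSG00000006728) at chr10:127063534-127067920 on the plus strand and Cdk6 (ENSMUSG00000040274) at chr5:3341485-3531008 on the plus strand. The inhibitor genes are Cdkn1a (ENSMUSG00000023067) at chr17:29090976-29100727 on the plus strand, Cdkn1b (ENSMUSG00000003031) at chr6:134920401-134925513 on the plus strand and Cdkn2c (ENSMUSG00000028551) at chr4:109660876-109667189 on the minus strand. Counts are sums over the exons of each gene, from 2662 bases in Ccne1 to 13989 bases in Cdk6.

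Total counts per library ranged from 10405696 to 26635239. Levels are CPM, the counts of a gene as a share of the library total on a common scale, computed here with scaled library sizes, and mean ± SD is over libraries. Differences are log2 fold changes with the standard error (SE) of an edgeR quasi-likelihood fit, and p-values were adjusted by Benjamini-Hochberg across the 17702 genes, with 0.05 as the threshold. The verbs rose and fell, and the words higher and lower where a test is given, are kept for genes past it. Nothing in the labels says that the libraries of a group came from separate cultures, so p-values measure the spread between these libraries, which may be technical. The table names each column by group only, so a library number is only a name.

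The stem cell factors Pou5f1 and Sox2 were present in all 36 libraries, at 474 to 695 CPM and 239 to 369 CPM. The list of 6 stem cell markers moved with the groups, with Nanog at 168 to 903 CPM. Its summed CPM was 2630 to 3240 without PD03 and 3820 to 4440 with it, and 5 of the 6 were higher on soft than on stiff gels in the average over media and times. Markers of other cell types also moved. The summed CPM of 5 fibroblast markers was 48.6 to 55.3 on stiff gels and 23.2 to 34.2 on soft gels at 24 h, and 66.9 to 77.9 on plastic. On stiff gels at 48 h it was 31.7 to 38.4 in serum + LIF and 82.3 to 87.7 with PD03 added, and 44.8 to 52.3 in serum and 63.4 to 74.4 with PD03 added. On soft gels at 48 h it was 21.7 to 28.8 without PD03 and 26.9 to 39.8 with it. Col1a1 alone was at 9.75 to 79.2 CPM over all libraries. The highest CPM of the other fibroblast markers was 13.7 for Thy1, 7.81 for Col1a2, 1.73 for Dcn and 0.19 for Lum. Lum was listed at 0 in 24 libraries and Dcn in 3. The summed CPM of 5 primitive endoderm markers was 33.4 to 54.2 without PD03 and 79.6 to 138 with it, with Dab2 alone at 19.5 to 118 CPM over all libraries. The other primitive endoderm markers did not follow Dab2 as a list, since Gata4 fell with PD03 in 3 of the 4 comparisons and Pdgfra in 1, and Gata6 rose in 2. The summed CPM of 4 early mesoderm and endoderm markers was 11.6 to 21.9 without PD03 and 4.52 to 6.38 with it. The part of these cells or transcripts in the results below was not tested, and in bulk RNA fewer cells of a type and less RNA per cell cannot be told apart.

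The sample descriptions name 3 pools. All libraries at 24 h and on plastic were in the first. The stiff libraries at 48 h were in the second, except 1 in serum + LIF, and the soft libraries at 48 h were in the third, except 2 in serum + PD03. Soft and stiff gels therefore shared a pool at 24 h, whereas at 48 h stiffness and pool nearly coincided and cannot be told apart. The effects of PD03 and LIF were measured almost wholly within a pool. A pool term was fitted under each of the 45 assignments of columns to pools that the labels allow.

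Levels between genes were compared as CPM per kb of exon. Ccne1 had a median over libraries of 156 CPM per kb and Cdk4 of 121, so the most abundant members were an E cyclin and a kinase. Ccnd3 and Ccnd1 followed at 37.2 and 36.8 CPM per kb. Cdkn1a at 8.80, Ccnd2 at 7.01, Cdk6 at 6.55, Ccne2 at 6.32 and Cdkn1b at 3.47 CPM per kb were lower, and Cdkn2c was last at 0.286 CPM per kb. The ratio of the highest to the lowest group mean was 22.6 for Ccnd2, 6.61 for Cdk6, 4.39 for Cdkn1b and 3.03 for Ccnd1. It was between 1.90 and 2.67 for Ccnd3, Ccne1, Ccne2 and Cdkn1a, and 1.39 for Cdk4. Cdkn2c had a ratio of 3.33 from 2 to 41 counts per library, and its coefficient of variation within a group had a median of 34.3% against 3.71% to 6.70% for the other members.

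**Figure D1:**
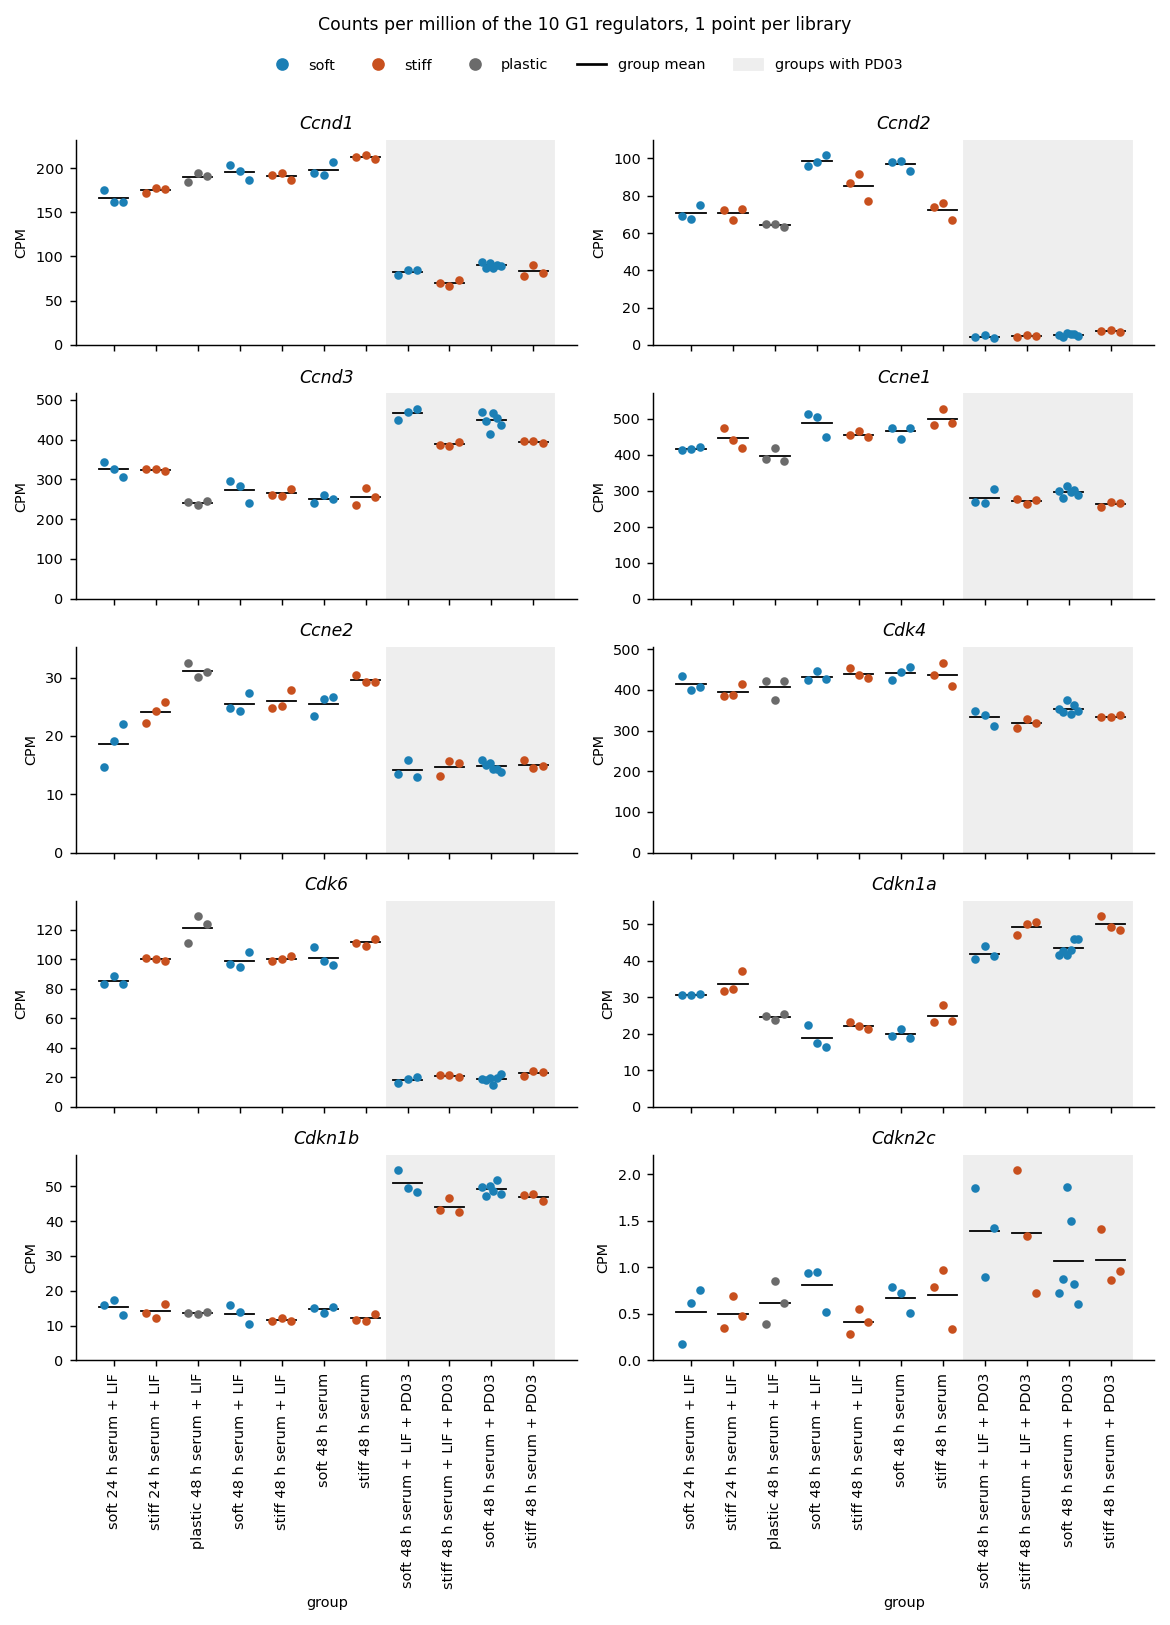
CPM (y axis) of each of the 10 genes in each of the 11 groups (x axis), with 1 point per library, a black line at the group mean and the groups with PD03 shaded; soft gels are blue, stiff gels orange and plastic grey. Ccnd2 and Cdk6 are far lower in the shaded groups, Ccnd3, Cdkn1a and Cdkn1b are higher there, and Cdkn2c is at most 2.04 CPM in every library.

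The question of the first comparison was how MEK inhibition with PD03 changed these genes at 48 h. Ccnd1, Ccnd2, Ccne1, Ccne2, Cdk4 and Cdk6 fell with PD03 on both gels, with and without LIF. Ccnd3, Cdkn1a and Cdkn1b rose in the same 4 comparisons. Cdkn2c rose on stiff gels with LIF. The number of members past the threshold was 9 on soft gels with LIF, 10 on stiff gels with LIF, 9 on soft gels without LIF and 9 on stiff gels without LIF. The stem cell, primitive endoderm, early mesoderm and endoderm, and stiff gel fibroblast marker sums given above moved with PD03 too, and their part in these results was not tested. PD03 moved much of the transcriptome, and 54.4%, 56.2%, 57.5% and 55.8% of all genes tested were past the threshold in these comparisons. The median absolute log2 fold change was 1.01, 1.30, 0.98 and 1 over the members and 0.42, 0.44, 0.39 and 0.43 over all genes.

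Of the D cyclins, Ccnd2 had the widest range. In serum + LIF its CPM was 95.7, 98.0 and 102 in the 3 soft libraries and 86.7, 91.8 and 77.0 in the 3 stiff ones. With PD03 added, the soft libraries held 4.08, 5.38 and 3.60 CPM and the stiff ones 4.27, 5.21 and 4.79 CPM. Every library with PD03 was thus far below every library without it. Ccnd2 was 22.5-fold lower on soft gels (log2 fold change -4.49, SE 0.095, edgeR adjusted p = 1.75e-38) and 17.8-fold lower on stiff gels (-4.16, SE 0.092, edgeR adjusted p = 1.08e-37). Without LIF, the CPM of Ccnd2 was 98.1, 98.8 and 93.4 on soft gels and 73.7, 76.3 and 66.9 on stiff gels. With PD03 it was 4.46 to 6.59 with a median of 5.52 in the 6 soft libraries, and 7.56, 7.94 and 6.81 in the stiff ones. The fall was 17.4-fold on soft gels (-4.12, SE 0.072) and 9.65-fold on stiff gels (-3.27, SE 0.089).

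Ccnd1, the D cyclin best known as an ERK target, fell less. Its CPM in serum + LIF was 203, 197 and 187 on soft gels against 78.7, 84.6 and 84.7 with PD03. The stiff libraries held 192, 194 and 186 CPM without PD03 and 70.4, 67.0 and 73.8 CPM with it. The groups did not overlap, and the log2 fold change of Ccnd1 was -1.24 (SE 0.051) on soft and -1.44 (SE 0.051) on stiff gels with LIF. Without LIF it was -1.13 (SE 0.042) on soft and -1.35 (SE 0.051) on stiff gels.

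Ccnd3 moved the other way. Its CPM in serum + LIF was 295, 284 and 242 on soft gels and 260, 259 and 276 on stiff gels. With PD03 it was 450, 470 and 478 on soft gels and 386, 384 and 394 on stiff gels, so that the lowest library with PD03 was above the highest without. The log2 fold change was 0.77 (SE 0.055) on soft gels with LIF, 0.55 (SE 0.055) on stiff gels with LIF, 0.83 (SE 0.049) on soft gels without LIF and 0.62 (SE 0.055) on stiff gels without LIF.

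As a share of the summed CPM per kb of the 3 D cyclins, Ccnd3 went from between 35.5% and 46.4% in the groups without PD03 to between 70.8% and 74.7% in those with it. Ccnd1 went from between 44.2% and 55.1% to between 24.7% and 27.9%, and Ccnd2 from between 9.16% and 12.7% to between 0.651% and 1.24%. The sum itself was 74.7 to 83.3 CPM per kb without PD03 and 59.7 to 71.1 with it. D cyclin transcript was therefore present in every group. Ccnd3 was the largest share in the groups with PD03 and also on soft gels at 24 h, at 46.4% against 44.2% for Ccnd1. On stiff gels at 24 h the shares were 45.3% for Ccnd3 and 45.5% for Ccnd1. The shares depend on the exon lengths used, 8775 bases for Ccnd3 and 4709 for Ccnd1.

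**Figure D2:**
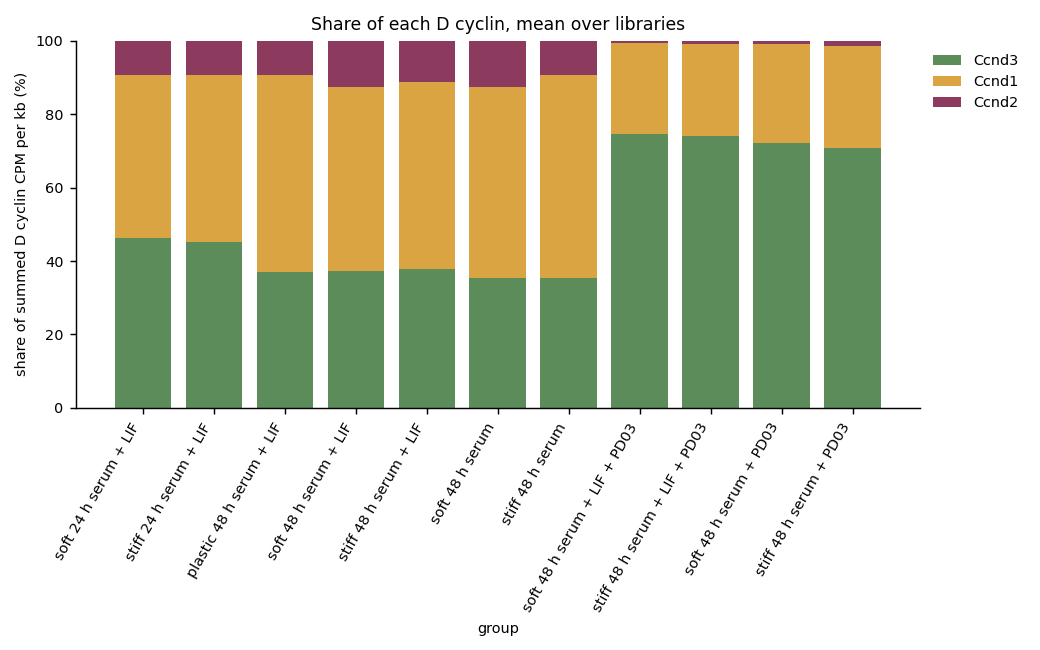
Share of each D cyclin in the summed CPM per kb of exon of Ccnd1, Ccnd2 and Ccnd3 (y axis, in %), as the mean over the libraries of each of the 11 groups (x axis). The share of Ccnd3 is at most 46.4% in the groups without PD03 and at least 70.8% in the 4 groups with it.

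Both E cyclins fell. Ccne1 held 512, 505 and 450 CPM on soft gels in serum + LIF and 270, 266 and 306 CPM with PD03. On stiff gels it held 454, 465 and 449 CPM without PD03 and 277, 264 and 275 CPM with it. The log2 fold change of Ccne1 ranged from -0.93 on stiff gels without LIF to -0.65 on soft gels without LIF. Ccne2, which was a small part of the E cyclin transcript, held 24.8, 24.3 and 27.4 CPM on soft gels in serum + LIF and 13.5, 15.9 and 12.9 CPM with PD03. Its log2 fold change ranged from -0.99 to -0.78. No library with PD03 reached the level of a library without it at 48 h for either gene. Ccne2 made 3.28% to 5.66% of the summed E cyclin CPM per kb over the 11 groups.

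The kinases differed in size of change. Cdk6 held 96.8, 94.9 and 105 CPM on soft gels in serum + LIF and 16.3, 18.9 and 19.8 CPM with PD03. On stiff gels it held 98.4, 100 and 102 CPM without PD03 and 21.2, 21.7 and 20 CPM with it. Its fall was 5.40-fold on soft and 4.79-fold on stiff gels with LIF (log2 fold changes -2.43, SE 0.079, and -2.26, SE 0.077), and 5.39-fold and 4.90-fold without LIF. Cdk4 held 425, 446 and 426 CPM on soft gels in serum + LIF and 348, 338 and 312 CPM with PD03. The fall of Cdk4 was 1.30-fold on soft and 1.38-fold on stiff gels with LIF, and its log2 fold change over the 4 comparisons was -0.47 to -0.31. Cdk6 made 4.55% to 6.5% of the summed CPM per kb of both kinases without PD03 and 1.21% to 1.55% with it. By this measure Cdk4 was nearly all of the kinase transcript throughout. The shares depend on the exon lengths used, 13989 bases for Cdk6 and 3249 for Cdk4. Without division by length, the means on soft gels in serum + LIF were 98.8 CPM for Cdk6 and 433 CPM for Cdk4.

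Of the inhibitors, Cdkn1b rose most. It held 15.9, 13.9 and 10.5 CPM on soft gels in serum + LIF and 54.6, 49.5 and 48.4 CPM with PD03. On stiff gels it went from 11.2, 12.2 and 11.4 CPM to 43.2, 46.5 and 42.6 CPM. The rise was 3.78-fold on soft and 3.80-fold on stiff gels with LIF (log2 fold changes 1.92, SE 0.094, and 1.93, SE 0.096), and 3.34-fold and 3.89-fold without LIF. Cdkn1a, a p53 target gene, held 22.4, 17.5 and 16.3 CPM on soft gels in serum + LIF and 40.5, 44.2 and 41.3 CPM with PD03. On stiff gels it held 23.1, 22 and 21.3 CPM without PD03 and 47.2, 50.2 and 50.7 CPM with it. Cdkn1a rose 2.24-fold and 2.23-fold with LIF (SE 0.083 and 0.080 on the log2 scale), and 2.19-fold and 2.02-fold without LIF. The summed CPM per kb of both genes was 8.22 to 12.6 without PD03 and 23 to 24.4 with it, and the groups did not overlap for either gene.

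Cdkn2c was near the detection limit. On stiff gels in serum + LIF it had 4, 8 and 8 counts, or 0.284, 0.556 and 0.409 CPM, and with PD03 it had 41, 27 and 18 counts, or 2.04, 1.33 and 0.724 CPM. That rise passed the test (log2 fold change 1.68, SE 0.485, edgeR adjusted p = 0.00278). In the other comparisons the log2 fold change of Cdkn2c was 0.78 with an interval of -0.09 to 1.64 on soft gels with LIF, 0.66 with an interval of -0.12 to 1.44 on soft gels without LIF, and 0.58 with an interval of -0.31 to 1.48 on stiff gels without LIF. Its groups overlapped in these 3 comparisons. The difference between the PD03 effects with and without LIF on stiff gels was itself not past the threshold for Cdkn2c (1.09, SE 0.673, edgeR adjusted p = 0.634).

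**Figure D3:**
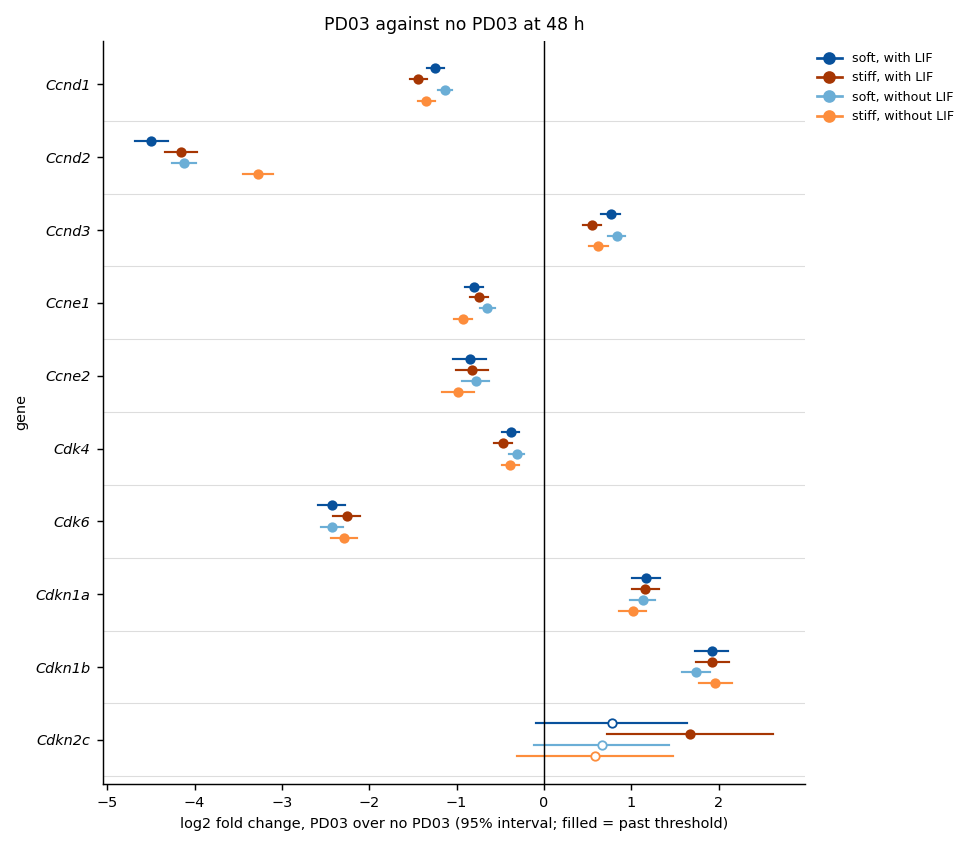
Log2 fold change with PD03 against without PD03 at 48 h (x axis, with 95% intervals) for each gene (y axis), on soft gels (blue) and stiff gels (orange), with LIF (dark) and without (light); filled points passed the threshold. Ccnd2 has the largest falls, from -4.49 to -3.27, all 4 Cdkn1b points lie right of 0 from 1.74 upwards, and 3 of the 4 Cdkn2c points are hollow.

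The exons of some members overlap genes on the opposite strand, and the strand setting of the counting was not stated. The overlap covers 23.4% of the exon bases of Ccnd1 (with LTO1), 19.7% of Cdk4 (Tspan31) and 17.4% of Ccne2 (Ints8). It covers 7.86% of Ccnd2, 7.68% of Cdkn1a, 4.11% of Ccnd3 (Bysl) and 2.63% of Cdk6, and none of Ccne1, Cdkn1b and Cdkn2c. With PD03 the log2 fold change of LTO1 was -0.11 to 0.06 and that of Ints8 -0.06 to 0.07, with no call in the 4 comparisons. Tspan31 lay between -0.24 and -0.07 with 1 call, and Bysl fell in all 4, by 0.20 to 0.31 on the log2 scale. The 2 partners of Ccnd2 had at most 1 count in any library and that of Cdk6 at most 13. The partner of Cdkn1a was not among the genes counted. The pseudogene Ccnd3-ps, which could share reads with Ccnd3, had at most 8 counts.

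Lists of related cell cycle and signalling genes were read in the same 4 PD03 comparisons, against the shares of all genes given above. All 8 ERK feedback targets fell in all 4 comparisons, with list medians from -3.09 to -2.69 on the log2 scale. On stiff gels with LIF, Spry4, an inhibitor of receptor signalling, went from 137 to 0.573 CPM (log2 fold change -7.82, SE 0.134) and the ETS factor Etv4 from 90.2 to 1.19 CPM (-6.27, SE 0.142). Of 13 genes of the RB family and E2F factors, 4 rose in every comparison and 6 or 7 fell. The pocket proteins Rb1 and Rbl1 rose, Rb1 by 0.68 (SE 0.107) on soft gels without LIF and Rbl1 by 0.60 (SE 0.102) on soft gels with LIF. E2f2 fell by 1.63 (SE 0.127) on stiff gels with LIF and the repressor E2f8 fell by 1.44 (SE 0.059) on stiff gels without LIF.

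Of the 4 other CDK inhibitors, 3 rose and 1 fell in all 4 comparisons. Cdkn2b went from 1.80 to 5 CPM on stiff gels with LIF (log2 fold change 1.53, SE 0.250) and Cdkn2a from 2.91 to 6.85 CPM on soft gels without LIF (1.23, SE 0.170). Cdkn2b encodes p15, which binds CDK4 and CDK6, and Cdkn2a encodes p16 and, in another reading frame, the ARF protein that acts on p53. Cdkn1c, which encodes p57, went from 89.1 to 46.3 CPM on stiff gels without LIF (-0.95, SE 0.080). The inhibitor genes therefore did not move as one.

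The S and M phase cyclins and kinases split, with 4, 4, 5 and 4 of 11 tested genes higher and 5, 4, 2 and 4 lower with PD03. Cdk2, the partner of E cyclins, rose by 0.55 (SE 0.055) on soft gels without LIF, and Ccnb2 by 0.48 (SE 0.058) on stiff gels without LIF. Ccnh and Cdk7, which form the CDK-activating kinase, fell by 0.39 (SE 0.064) and 0.33 (SE 0.055) on soft gels with LIF. Of 11 genes in the replication licensing list, which also holds the sliding clamp Pcna, 6, 7, 5 and 7 fell and none rose. Over all genes, 54.4% to 57.5% were called in either direction. Pcna went from 595 to 376 CPM on stiff gels without LIF, and Cdt1 from 142 to 107 CPM on stiff gels with LIF.

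Of 5 genes for the turnover of G1 regulators, 1, 2, 1 and 1 rose and 1, 1, 1 and 2 fell. Over all genes, 54.4% to 57.5% were called in either direction, so this list was near the share of all genes. Fbxw7, whose ligase marks cyclin E for degradation, rose by 0.35 (SE 0.059) on stiff gels with LIF, and Skp2, whose ligase marks p27, fell by 0.36 (SE 0.058) there. Of 10 other p53 targets, 6 rose in each comparison and 2 or 3 fell. Phlda3 and Sesn2 rose by 0.66 (SE 0.074) and 0.58 (SE 0.066) on soft gels with LIF, while Zmat3 fell by 0.49 (SE 0.051) on stiff gels with LIF and Aen by 0.41 (SE 0.060) on stiff gels without LIF. The p53 targets thus did not all share the direction of Cdkn1a.

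The next question was whether the stiffness of the gel changed these genes. The differences were far smaller than those with PD03, with a median absolute log2 fold change of the members between 0.08 and 0.16 in each medium and time, against 0.12 to 0.14 over all genes. At 24 h in serum + LIF, the comparison within 1 pool, 2 of the 10 members were lower on soft gels, where 3.55% of all genes were past the threshold. Ccne2 held 14.7, 19.1 and 22 CPM on soft gels and 22.2, 24.3 and 25.9 CPM on stiff gels, so its groups were separated by a narrow gap. The log2 fold change was -0.36 (SE 0.095, edgeR adjusted p = 0.0187). Cdk6 held 83.0, 88.4 and 83.3 CPM on soft gels and 101, 100 and 98.6 CPM on stiff gels, with no overlap (-0.23, SE 0.069, edgeR adjusted p = 0.0414).

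Neither call at 24 h held without every library. Ccne2 lost its call without stiff library 2 or 3 or soft library 1 or 2 (edgeR adjusted p 0.0586 to 0.262, log2 fold change -0.37 to -0.23). Cdk6 lost its call without any 1 of the 6 libraries (edgeR adjusted p 0.0586 to 0.149). The other 8 members had intervals at 24 h that included 0. That of Ccnd2 was -0.14 to 0.13 and that of Ccnd3 was -0.11 to 0.11, so a difference as large as those of Ccne2 lay outside both.

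At 48 h in serum + LIF no member was past the threshold with edgeR or DESeq2, where 0.780% of all genes were with edgeR. An unadjusted edgeR p under 0.05 was found for 2 members and for 1929 of the 17702 genes. Ccnd2 had non-overlapping groups there and a log2 fold change of 0.21 with an interval of 0.08 to 0.34 (edgeR adjusted p = 0.145). In serum alone, 2 members were called, against 4.85% of all genes. Ccnd2 was higher on soft gels, at 98.1, 98.8 and 93.4 CPM against 73.7, 76.3 and 66.9 CPM on stiff gels (0.42, SE 0.067, edgeR adjusted p = 1.7e-05). Cdkn1a was lower on soft gels, at 19.3, 21.4 and 18.9 CPM against 23.2, 27.9 and 23.5 CPM (-0.32, SE 0.084, edgeR adjusted p = 0.0155). This call was lost without stiff library 2 or soft library 1 or 3 (edgeR adjusted p 0.089 to 0.226, log2 fold change -0.29 to -0.22).

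In serum + PD03, 4 members were called, against 5.55% of all genes. Ccnd2 was here lower on soft gels, with 4.46 to 6.59 CPM in 6 libraries against 7.56, 7.94 and 6.81 CPM on stiff gels (log2 fold change -0.43, SE 0.106, edgeR adjusted p = 0.00662). Cdk6 was also lower on soft gels, with 14.6 to 22.1 CPM against 20.5, 23.9 and 23.6 CPM, and its groups overlapped (-0.28, SE 0.076, edgeR adjusted p = 0.0159). Ccnd3 and Ccne1 were higher on soft gels. Ccnd3 held 413 to 469 CPM on soft gels against 396, 396 and 391 CPM (0.18, SE 0.048, edgeR adjusted p = 0.0109), and Ccne1 held 281 to 313 CPM against 255, 268 and 265 CPM (0.18, SE 0.046, edgeR adjusted p = 0.0118). Without single stiff libraries the calls were lost for Ccnd2 (library 2, edgeR adjusted p = 0.105), Ccnd3 (libraries 1 and 3, 0.055 and 0.0621), Ccne1 (library 1, 0.134) and Cdk6 (libraries 2 and 3, 0.166 and 0.11). That of Cdk6 was also lost without soft library 4 (0.0576).

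In serum + LIF + PD03, 3 members were called, against 7.61% of all genes. Ccnd1 was higher on soft gels, with 78.7, 84.6 and 84.7 CPM against 70.4, 67.0 and 73.8 CPM (log2 fold change 0.23, SE 0.052, edgeR adjusted p = 0.00181). Ccnd3 was higher too, with 450, 470 and 478 CPM against 386, 384 and 394 CPM (0.26, SE 0.054, edgeR adjusted p = 0.000594). Cdkn1a was lower, with 40.5, 44.2 and 41.3 CPM against 47.2, 50.2 and 50.7 CPM (-0.23, SE 0.073, edgeR adjusted p = 0.0356). The Cdkn1a call was lost without stiff library 2 or 3 or soft library 1 or 3 (edgeR adjusted p 0.127 to 0.152, log2 fold change -0.23 to -0.21).

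Averaged over the 5 media and times, 5 members differed, against 17.1% of all genes. Cdkn1a was lower on soft gels by 0.23 (SE 0.035, edgeR adjusted p = 2.04e-06), with a negative estimate in each of the 5. Cdk6 was lower by 0.18 (SE 0.033, edgeR adjusted p = 6.31e-05) and Ccne2 by 0.14 (SE 0.042, edgeR adjusted p = 0.0134). Cdkn1b was higher by 0.18 (SE 0.043, edgeR adjusted p = 0.0017) and Ccnd3 by 0.10 (SE 0.024, edgeR adjusted p = 0.00301). Since 4 of the 5 strata were collected at 48 h, most of this average carries the pool difference.

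With a pool term the comparisons at 48 h rested on the few libraries that cross pools. Over the 45 assignments, the Ccnd2 call in serum was kept in 9 (log2 fold change 0.10 to 0.71) and that in serum + PD03 in 15 (-0.67 to -0.25). The Cdkn1a call in serum was kept in none (-0.41 to -0.19). Of the other calls in serum + PD03, those of Ccnd3 and Cdk6 were kept in 12 each and that of Ccne1 in 9. In serum + LIF + PD03 the Ccnd3 call was kept in 21, that of Ccnd1 in 8 and that of Cdkn1a in none (-0.33 to -0.11). Of the averages, Cdkn1a was called in 18 (-0.30 to -0.13), Cdk6 in 12 (-0.40 to -0.00) and Ccnd3 in 3 (0.01 to 0.17), and Ccne2 and Cdkn1b in none. At 24 h, Ccne2 was called in all 45 and Cdk6 in 31. The gels shared a pool there, so the pool term left the log2 fold changes at -0.36 and -0.23. These counts therefore do not test the 24 h calls against pool. The fibroblast marker sum was also lower on soft than on stiff gels in each medium and time, as given above, and its part in these differences was not tested.

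**Figure D4:**
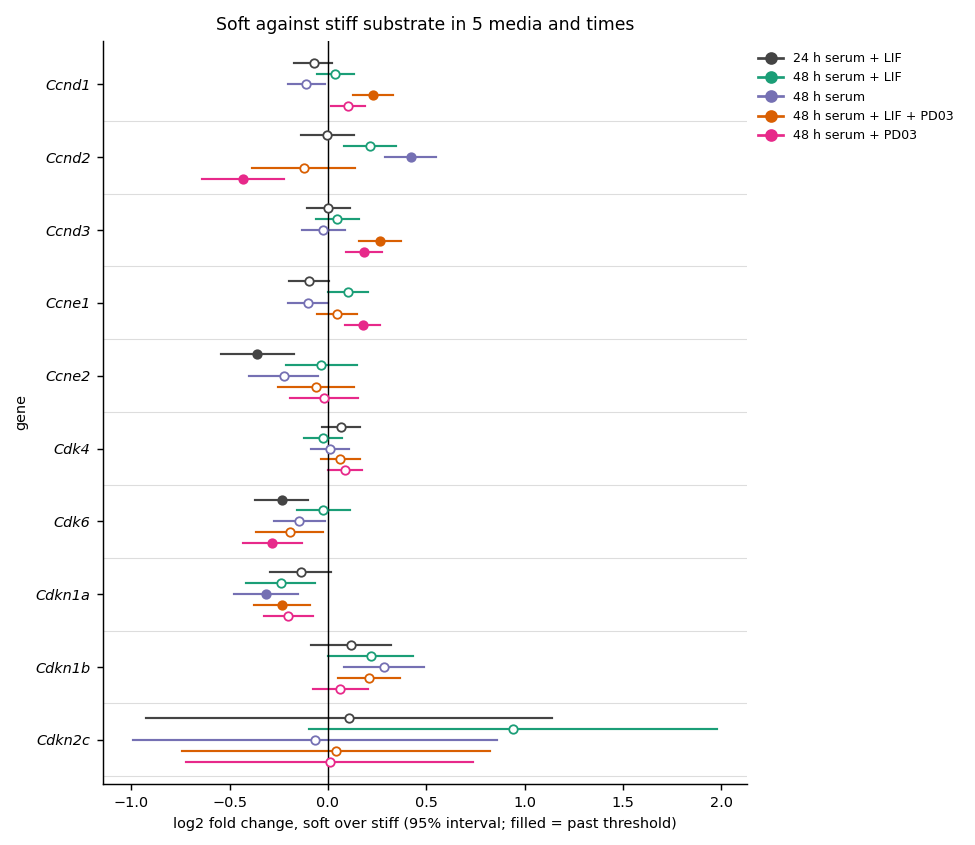
Log2 fold change on soft against stiff gels (x axis, with 95% intervals) for each gene (y axis) in the 5 media and times; filled points passed the threshold. Cdkn1a lies left of 0 in all 5, and Ccnd2 lies right of 0 in serum (0.42) and left of 0 in serum + PD03 (-0.43).

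The related lists were also averaged over the 5 media and times, where 17.1% of all genes were past the threshold in either direction. In the licensing list 6 of 11 genes, and in the S and M phase list 5 of 11, were higher on soft gels and none lower. Mcm7, a subunit of the replicative helicase, was higher by 0.23 (SE 0.046) in serum + LIF + PD03, at 427 against 365 CPM. Of the 10 other p53 targets, 5 were lower and none higher. Plk2 and Ccng1 were lower on soft gels at 24 h, at 61.2 against 83.8 CPM (-0.46, SE 0.069) and at 261 against 310 CPM (-0.25, SE 0.051). Cdkn1c was lower on soft gels in serum + LIF + PD03, at 35.7 against 58.6 CPM (-0.71, SE 0.082), and was the only one of the 4 other inhibitors called in the average. The RB and E2F list had 2 higher and 2 lower of 13 genes, the ERK feedback list 1 and 1 of 8, and the turnover list none and 1 of 5.

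Whether the effect of PD03 depended on stiffness was tested as the difference between the effects. Without LIF, 2 members were past the threshold, against 0.797% of all genes. The soft against stiff difference of Ccnd2 was 0.42 in serum and -0.43 in serum + PD03, and the change between them was -0.85 (SE 0.126, edgeR adjusted p = 3.27e-05). It kept its call in all 22 alternatives, and in all 45 pool assignments at -0.96 to -0.76. Within each gel nearly all of these libraries shared a pool, so the pool term could hardly test this call. For Ccne1 the differences were -0.10 and 0.18, and the change was 0.28 (SE 0.070, edgeR adjusted p = 0.0342). This call was kept in 11 of 22 alternatives and 12 of 45 pool assignments, and it was lost without any 1 of the stiff libraries but serum library 1, without any of the 3 soft serum libraries and without soft serum + PD03 library 1 (edgeR adjusted p 0.0526 to 0.237, log2 change 0.22 to 0.30).

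With LIF, no member showed a dependence of the PD03 effect on stiffness with edgeR or DESeq2, against 1.07% of all genes with edgeR. An unadjusted edgeR p under 0.05 was found for 3 members and for 1689 of the 17702 genes. The change of Ccnd2 was -0.34 there with an interval of -0.63 to -0.04 (edgeR adjusted p = 0.428). The soft against stiff difference in serum + LIF did not change with time past the threshold in any member, against 0.254% of all genes. There 4 members had an unadjusted edgeR p under 0.05, as did 1853 of the 17702 genes, and DESeq2 called no member.

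**Figure D5:**
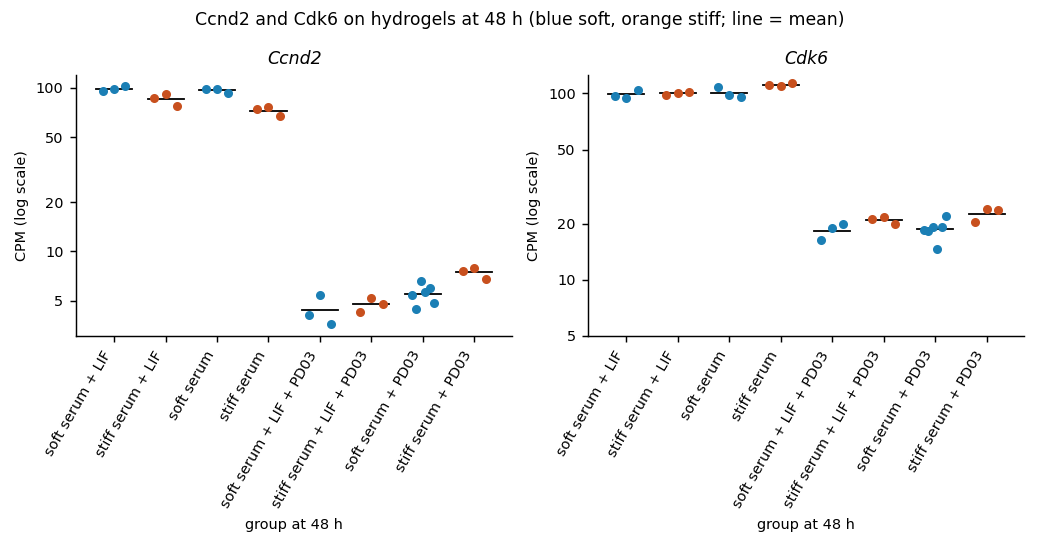
CPM of Ccnd2 (left) and Cdk6 (right) on a log y axis in the 8 hydrogel groups at 48 h (x axis), with 1 point per library and a line at the mean; soft gels are blue and stiff gels orange. In serum the 3 soft Ccnd2 libraries lie above the stiff ones, and in serum + PD03 the 6 soft libraries, at 4.46 to 6.59 CPM, lie below the 3 stiff ones.

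LIF changed few genes in these media, and few members. Without PD03 no member was called on soft gels, where 0.0169% of all genes were called, and DESeq2 also called no member. An unadjusted edgeR p under 0.05 was found there for 1 member and for 1345 of the 17702 genes. The intervals on soft gels reached from -0.11 to 0.08 for Ccnd1 and from -0.10 to 0.16 for Ccnd2, and the widest was that of Cdkn2c, from -0.67 to 1.19. Without PD03 on stiff gels no member was called either, against 1.41% of all genes, while DESeq2 called 1. An unadjusted edgeR p under 0.05 was found for 5 members and for 2032 of the 17702 genes. Ccnd1 had -0.16 there with an interval of -0.25 to -0.06 (edgeR adjusted p = 0.0976), and Ccnd2 had 0.23 with an interval of 0.10 to 0.37 (edgeR adjusted p = 0.0732).

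With PD03, LIF made no member pass the threshold on soft gels with edgeR or DESeq2, against 0.107% of all genes with edgeR. An unadjusted edgeR p under 0.05 was found for 3 members and for 1430 of the 17702 genes. On stiff gels with PD03, 2 members fell with LIF, against 0.514% of all genes. Ccnd2 went from 7.56, 7.94 and 6.81 CPM to 4.27, 5.21 and 4.79 CPM (log2 fold change -0.65, SE 0.122, edgeR adjusted p = 0.00244), and Ccnd1 from 78.3, 90.6 and 81.6 CPM to 70.4, 67.0 and 73.8 CPM (-0.25, SE 0.052, edgeR adjusted p = 0.0088). These groups did not overlap. Both calls were lost without serum + LIF + PD03 library 1 or serum + PD03 library 2 (edgeR adjusted p 0.0591 and 0.0658 for Ccnd2, 0.0858 and 0.276 for Ccnd1), and that of Ccnd1 also without serum + LIF + PD03 library 2 (0.135). Both were kept in all 45 pool assignments. These groups shared a pool, so the pool term left the estimates unchanged and could not test the calls.

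The dependence of the LIF effect on PD03 was tested after the data had been seen. On stiff gels the LIF effect on Ccnd2 was 0.23 without PD03 and -0.65 with it, a change of -0.89 (SE 0.140, edgeR adjusted p = 9.37e-05), the only member called, against 1.09% of all genes. This contrast and the stiffness by PD03 contrast share the stiff serum and stiff serum + PD03 libraries. On soft gels no member was called with edgeR or DESeq2, against 0.0226% of all genes with edgeR. An unadjusted edgeR p under 0.05 was found for 2 members and for 1301 of the 17702 genes. The change of Ccnd2 on soft gels was -0.37 with an interval of -0.64 to -0.11. The LIF effect did not differ between gels past the threshold in any member, without or with PD03, and DESeq2 called no member in both. Without PD03, 0.0847% of all genes were called, and 3 members and 1719 of the 17702 genes had an unadjusted edgeR p under 0.05. With PD03, 0.00565% of all genes were called, and no member but 830 of the 17702 genes had an unadjusted edgeR p under 0.05.

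Both gels were compared with plastic at 48 h in serum + LIF. On soft gels 6 members differed, against 11.8% of all genes, and on stiff gels 3, against 5.54%. Both comparisons use the same 3 plastic libraries. Ccnd2 held 65.1, 64.9 and 63.2 CPM on plastic, below every hydrogel library in this medium, and was higher by 0.61 (SE 0.069, edgeR adjusted p = 1.44e-09) on soft and by 0.40 (SE 0.069, edgeR adjusted p = 4.91e-05) on stiff gels. Cdk6 held 111, 129 and 124 CPM on plastic, above every hydrogel library in this medium, and was lower by 0.30 on soft (SE 0.068) and by 0.27 on stiff gels (SE 0.068). Ccne1 held 389, 420 and 382 CPM on plastic and was higher by 0.30 (SE 0.052) on soft and by 0.20 (SE 0.052) on stiff gels.

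Also on soft gels, Cdkn1a was lower than on plastic by 0.40 (SE 0.088), where plastic held 24.8, 23.8 and 25.3 CPM. Ccne2 was lower by 0.29 (SE 0.092), where plastic held 32.6, 30.1 and 30.9 CPM, and Ccnd3 was higher by 0.18 (SE 0.056), with overlapping groups. The Ccnd3 call was lost without plastic library 2 or soft library 1 or 2, and that of Ccne2 without plastic library 1 or 3 or soft library 1 or 2 (edgeR adjusted p 0.0711 to 0.188). On stiff gels, that of Ccne1 was lost without plastic library 1 or 3 or stiff library 1 or 2 (0.0544 to 0.121) and that of Cdk6 without plastic library 2 (0.0789). All plastic libraries were in the first pool. With a pool term, Ccnd2 was called in 18 of 45 assignments on soft and 30 on stiff gels, Cdk6 in 6 and 0, and Ccne1 in 3 and 0. The calls of Ccnd3, Ccne2 and Cdkn1a on soft gels were kept in none.

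The p53 targets and the ERK feedback genes were also read against plastic. Of the 10 other p53 targets, 6 were lower on soft gels and 6 on stiff gels, and none was higher, where 11.8% and 5.54% of all genes were called. Ccng1 was at 228 CPM on soft gels and 338 CPM on plastic (log2 fold change -0.57, SE 0.051), and Plk2 at 44.9 and 78.6 CPM (-0.81, SE 0.071). Of the 8 ERK feedback targets, 3 were higher and 1 lower on soft gels, and 2 were higher and 1 lower on stiff gels. The immediate early factor Egr1 was higher on stiff gels, at 49.4 against 25.4 CPM (0.96, SE 0.101), and Dusp4, a phosphatase of ERK, was lower on soft gels, at 25.9 against 43.4 CPM (-0.75, SE 0.097). The fibroblast marker sum was higher on plastic than on either gel in this medium, and its part was not tested.

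Between 24 h and 48 h in serum + LIF, 7 members differed on soft gels, against 24.4% of all genes, and 5 on stiff gels, against 25.6%. Cdkn1a fell on both, from 30.5, 30.7 and 30.9 CPM to 22.4, 17.5 and 16.3 CPM on soft gels (log2 fold change -0.71, SE 0.087, edgeR adjusted p = 1.21e-08) and from 31.6, 32.4 and 37.3 CPM to 23.1, 22 and 21.3 CPM on stiff gels (-0.61, SE 0.082, edgeR adjusted p = 6.83e-08). Ccnd3 fell too, by 0.25 (SE 0.056) on soft and by 0.29 (SE 0.055) on stiff gels. Ccnd2 rose by 0.48 (SE 0.069) and 0.26 (SE 0.068).

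Also on soft gels, Ccne2 rose by 0.44 (SE 0.097), Ccnd1 by 0.24 (SE 0.049), Ccne1 by 0.23 (SE 0.052) and Cdk6 by 0.22 (SE 0.070). Also on stiff gels, Cdk4 rose by 0.16 (SE 0.050) and Cdkn1b fell by 0.28 (SE 0.107). Calls on soft gels were lost without 48 h library 3 for Ccnd3 (log2 fold change -0.15, edgeR adjusted p = 0.0607) and without 24 h library 3 or 48 h library 3 for Cdk6 (0.0527 and 0.0684). On stiff gels they were lost for Ccnd2 without 48 h library 2 (0.20, edgeR adjusted p = 0.0508), for Cdk4 without library 1 or 2 of either time (0.0538 to 0.111) and for Cdkn1b without any 1 library but 24 h library 2 (0.0511 to 0.343). The times differ in pool on soft gels and, but for 1 library, on stiff gels. With a pool term Cdkn1a was called in 38 of 45 assignments on soft and in all 45 on stiff gels, and Ccnd3 in all 45 on stiff gels. The Ccnd2 call was kept in 11 assignments on soft and 30 on stiff gels, and each of the other calls with time in at most 3.

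Of the related lists, that of licensing had 6 of 11 genes that rose and none that fell with time on each gel. Over all genes, 24.4% were called on soft and 25.6% on stiff gels. Mcm3 rose by 0.38 (SE 0.055) on stiff gels and Pcna by 0.35 (SE 0.058) on soft gels. Of the other p53 targets, 6 fell and none rose on soft gels, and 5 fell and 1 rose on stiff gels. Phlda3 fell from 74.8 to 50.9 CPM on stiff gels (log2 fold change -0.56, SE 0.073), whereas Bax rose from 103 to 128 CPM. Cdkn1c rose from 38.8 to 77.8 CPM on stiff gels (1.01, SE 0.081), opposite to Cdkn1a.

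Across the 17 comparisons of 2 groups, Ccnd2 was called in 11, Ccnd3, Cdk6 and Cdkn1a in 9 each, Ccne1 in 8, Ccnd1 and Ccne2 in 7 each, Cdk4 and Cdkn1b in 5 each and Cdkn2c in 1. These comparisons share libraries. Cdk4 and Cdkn1b were thus called with PD03 in all 4 comparisons and otherwise in 1 each. Each PD03 comparison called 54.4% to 57.5% of all genes, and those of time called 24.4% on soft and 25.6% on stiff gels. Call totals over all genes were not computed, so those of the members are a description only. The 11 groups were put in the order of each gene's own means, and the libraries of neighbouring groups were compared. Of the 10 neighbouring pairs, the number without overlap was 5 for Ccnd2 and Cdkn1a, 4 for Ccnd1, and 3 for Ccnd3 and Cdk6. It was 2 for Ccne2 and Cdk4, 1 for Ccne1 and Cdkn1b, and 0 for Cdkn2c. The share over all genes was not computed, so these counts are a description only.

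The genes whose 11 group means of log2 CPM were most like each member were found by Pearson's r among 10474 other genes of at least 5 CPM. The groups share media and pools, and PD03 splits them, so high r values are common and are a description. For Ccnd1 they were Gtf2h3 and Ctbp2 (r = 0.998 each) and Zkscan5 (0.996), and for Ccnd2 they were Spn and Ddx56 (0.998 each) and Exosc7 (0.997). For Ccnd3 they were Pdk2 (0.991), Ucp2 (0.990) and Kmt5c (0.987). Nop16 (0.992), Sumo3 and Tufm (0.990 each) were nearest to Ccne1, and Prps2 (0.994), Eif3j2 (0.993) and Khdrbs1 (0.992) to Ccne2. Pipox and Zmynd19 (0.995 each) and Champ1 (0.993) were nearest to Cdk4, and Hook1, Lef1 and Lin28a (0.997 each) to Cdk6. For the inhibitors they were 5031439G07Rik (0.989), Trp73 (0.988) and Csrp1 (0.984) for Cdkn1a, and Asah1 and Dusp16 (0.998 each) and Ncoa2 (0.997) for Cdkn1b. Cdkn2c had the lowest values, with Ten1 at 0.964, Glce at 0.956 and Psmc3 at 0.955. Among the members themselves, Cdk6 and Cdkn1b had r = -0.992 and Ccnd1 and Ccnd2 had r = 0.981 over the 11 groups.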

How the data were processed

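RNA was sequenced from 36 libraries of mESCs in 11 groups. Per the study's methods and the labels, the authors aligned reads with STAR 2.5.2a to GRCm38 and counted them per Ensembl gene with HTSeq, and they deposited whole-number counts of 49671 genes. The strand setting and the treatment of reads with several matches were not given in the sources used here. Columns carry group names only, so a column was tied to its group and to no single sample.

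Symbols and exon lengths were taken from GENCODE M21 and upstream sequences from RefSeq (GRCm38.p6). Low genes were removed by group with filterByExpr, which kept 17702 genes and 99.92% of counts, and 13380 genes had no count. Totals of 10405696 to 26635239 counts limit the precision of low genes. One model with a mean per group was fitted to all 36 libraries in edgeR 4.0.16 (R 4.3.3, TMM factors, quasi-likelihood F test), with Benjamini-Hochberg adjusted p-values over all genes tested and a threshold of 0.05. An SE is the log2 fold change over the root of F, and 95% intervals are normal intervals from the SE. The edgeR steps were tested on simulated counts for soft against stiff gels at 24 h only. The pool and interaction fits were not simulated. The 45 pairs of libraries within groups of 3 or more differed by 2.22 to 13.4 in chi-square per gene, above sampling noise, so none was counted as a duplicate.

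Alternatives were DESeq2 1.42.0, other scaling factors, no filter, a fit on the compared groups alone, each library left out, and a pool term under 45 assignments. The members and gene lists were chosen with earlier results of these data known. All members were named. From each other list, in each kind of comparison, the rule allowed up to 2 called genes of largest change in each direction, and some of these are printed. Genes most like a member had the highest Pearson's r over 11 group means of log2 CPM (prior count 2, mean of at least 5 CPM).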

Additional observations from a re-analysis of the deposited data

Results flagged for a closer look

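Differences between groups in the same contrast were past the threshold for 3 results. The soft against stiff difference of Ccnd2 without LIF changed by -0.85 (SE 0.126, edgeR adjusted p = 3.27e-05) when PD03 was present, from 0.42 to -0.43. The LIF effect on Ccnd2 on stiff gels changed by -0.89 (SE 0.140, edgeR adjusted p = 9.37e-05), from 0.23 to -0.65. Both contrasts use the 3 stiff serum libraries (66.9 to 76.3 CPM) and the 3 stiff serum + PD03 libraries (6.81 to 7.94 CPM), so they are not independent. The same soft against stiff difference of Ccne1 changed by 0.28 (SE 0.070, edgeR adjusted p = 0.0342), from -0.10 to 0.18, and this call was lost without any 1 of 9 libraries. In the 1 group of more than 3 libraries, soft gels in serum + PD03, no library of any member stood apart by Dixon's test (highest ratio of gap to range 0.482).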

How the results depend on the processing

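No paired analysis was possible because the columns carry no replicate numbers. The member calls with PD03 all kept their direction and stayed past the threshold under every alternative, the 45 pool assignments included. On soft gels with LIF and on stiff gels without LIF, the compared groups shared a pool, so the pool term could not test those calls. With the pool term, 2 members reversed at their lowest assignment between 24 h and 48 h on soft gels, Ccnd2 to -0.058 (edgeR adjusted p = 0.93) and Cdk6 to -0.121 (edgeR adjusted p = 0.746). These times were in different pools. The 4 tests of stiffness by time, of stiffness by LIF with PD03 and of LIF by PD03 on each gel were added after the data had been seen. Counts of members called moved elsewhere. Soft against stiff at 24 h went from 2 to 1 with relative log expression scaling, with library totals, in a fit on the compared groups alone and at the lowest pool assignment. The comparison in serum went from 2 to 1 in a fit on the compared groups alone. With library totals, stiff against plastic went from 3 to 5, LIF on stiff gels without PD03 from 0 to 1 (also with DESeq2 and at the highest pool assignment) and stiffness by PD03 without LIF from 2 to 1 (also at the lowest pool assignment). Over the pool assignments the counts were 0 to 1 in serum, 0 to 2 in serum + PD03, 0 to 2 in serum + LIF + PD03, 0 to 3 in the average over media, 0 to 2 for soft and 0 to 1 for stiff gels against plastic, and 0 to 3 for time on soft gels, and the lowest was 2 for time on stiff gels. Leaving out 1 library gave 0 to 1 for soft against stiff at 24 h, 1 to 2 in serum, 2 to 5 in serum + PD03, 0 to 1 and 0 to 2 for LIF on stiff gels without and with PD03, 2 to 4 for time on stiff gels and 1 to 2 for stiffness by PD03 without LIF. Over all genes, DESeq2 called 233 against 138 with edgeR for soft against stiff in serum + LIF at 48 h, 39 against 3 and 38 against 19 for LIF on soft gels without and with PD03, 338 against 141 for stiffness by PD03 without LIF, 122 against 15 for stiffness by LIF without PD03, 89 against 45 for stiffness by time and 23 against 4 for LIF by PD03 on soft gels. The cause of these shifts was not tested. Depth limits Cdkn2c most, with at most 41 counts in a library.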
